A study of Homo sapiens with 6 samples.

Results

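The genes described here encode the elastic fibre and its microfibrils. They are the 10 rows whose symbol was that of elastin (ELN), a fibrillin (FBN1, FBN2), a fibulin (FBLN1, FBLN2, FBLN5, EFEMP1, EFEMP2) or a microfibril-associated glycoprotein (MFAP2, MFAP5), out of 16907 gene symbols measured. All 10 were found. RNA was sequenced from LX-2 cells, an immortalised human hepatic stellate cell line, grown in DMEM with 5% fetal bovine serum. Cells in both groups were transfected at 20 nM for 72 h, either with a control small interfering RNA (siControl, 3 libraries) or with small interfering RNAs directed against OGT (siOGT, 3 libraries). OGT encodes the only enzyme that adds O-linked N-acetylglucosamine to nuclear and cytosolic proteins. The comparison asks how silencing of OGT changed these transcripts, in 3 pairs of libraries that share a replicate number. A single cell line was used, and siOGT was a commercial pool of siRNAs whereas siControl was a single negative-control siRNA.

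Elastic fibres let tissue recoil. They consist of a core of cross-linked elastin laid on a scaffold of fibrillin microfibrils. Fibulins carry elastin to the microfibril and bring in the cross-linking enzymes, and the scaffold also stores latent TGF-beta, a driver of fibrosis. In the liver, activated stellate cells and portal fibroblasts are sources of these proteins in scar tissue.

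The libraries held between 25996770 and 27966801 expected counts, and 3 counts in a library, taken as the limit that a count of 0 allows, corresponded to 0.107 to 0.118 CPM (counts scaled by the library total). OGT itself had 145 ± 28.9 CPM in siControl and 32.0 ± 6.94 CPM in siOGT (mean ± SD of 3 libraries), and its log2 fold change (log2FC) was -2.18 (edgeR adjusted p = 2.712e-12), with log2 ratios of -2.15, -2.34 and -2.05 in pairs 1, 2 and 3. Of 12 markers of stellate cells and fibroblasts, 10 had a mean of at least 1 CPM, whereas DES had 0 to 6 counts and LRAT 0 to 1 count per library. These 12 markers summed to 8138 to 9835 CPM in siControl and 7710 to 9659 CPM in siOGT. Among them 5 (COL1A1, COL1A2, COL3A1, PDGFRB and THY1) were called lower and 2 (TAGLN and SPARC) higher, where 12.7% of all genes tested were called in each direction. The myofibroblast marker ACTA2 was not called (log2FC 0.25, edgeR adjusted p = 0.300). Markers of hepatocytes and endothelial cells were low: the 6 hepatocyte markers measured summed to 3.55 to 4.56 CPM in siControl and 3.58 to 3.78 CPM in siOGT, and the 5 endothelial markers to 3.93 to 8.37 and 3.52 to 6.39 CPM. Of these, VWF was called lower (log2FC -0.93, edgeR adjusted p = 0.0108). The 5 cholangiocyte markers summed to 88.6 to 128 and 91.4 to 129 CPM, most of it from SOX9, with EPCAM at 0 to 3 counts. The 5 macrophage and leukocyte markers summed to 131 to 162 CPM in siControl and 176 to 208 CPM in siOGT, almost all of it from the lysosomal protein CD68, which was called higher (log2FC 0.46, edgeR adjusted p = 9.472e-04), and the leukocyte marker PTPRC had 9 to 23 counts per library. The part of these marker differences in the results below was not tested.

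Transcripts of the fibrillins and of 3 fibulins made up nearly all of the elastic fibre RNA in these cells, and elastin RNA itself was close to nothing. To compare levels between genes, CPM values were divided by the merged exon length of each gene in kilobases. On this scale EFEMP2 was highest in siControl, with 23.0, 27.4 and 24.7 CPM per kb (SD 2.23), followed by FBN1 with 20.4 ± 2.21, EFEMP1 with 15.1 ± 0.925, FBN2 with 10.8 ± 1.05 and FBLN2 with 10.6 ± 1.02 (SD, n = 3 each). FBN2 and FBLN2 did not differ beyond their spread. The siControl values of FBN1 (18.8 to 22.9) ended just under those of EFEMP2, and those of EFEMP1 (14.1 to 15.8) lay apart from both. A wide gap separated these 5 genes from FBLN5 with 0.515 ± 0.105 CPM per kb and FBLN1 with 0.327 ± 0.207, which overlapped each other, and from MFAP5 with 0.0807 ± 0.0142. ELN and MFAP2 lay at the bottom, with at most 0.0282 and 0.0145 CPM per kb in any library. By their means over all 6 libraries, the order of the 10 genes was the same when the longest single transcript was used as the length. In siControl alone, ELN and MFAP2 changed places. The siControl levels rose with that length, in proportion the most for FBLN1 (0.820), EFEMP2 (59.3) and FBLN5 (1.16), all in CPM per kb. Summed over the 10 genes, the level was 84.8, 84.0 and 80.0 CPM per kb in siControl and 70.4, 78.4 and 62.2 CPM per kb in siOGT, so that every siOGT library lay below every siControl library. FBLN2 made up at least 12.0% of this sum in each siControl library and 9.68%, 10.3% and 9.23% in siOGT, whereas the share of FBN1 (22.3% to 27.6% over all 6 libraries) overlapped between the groups.

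**Figure D1:**
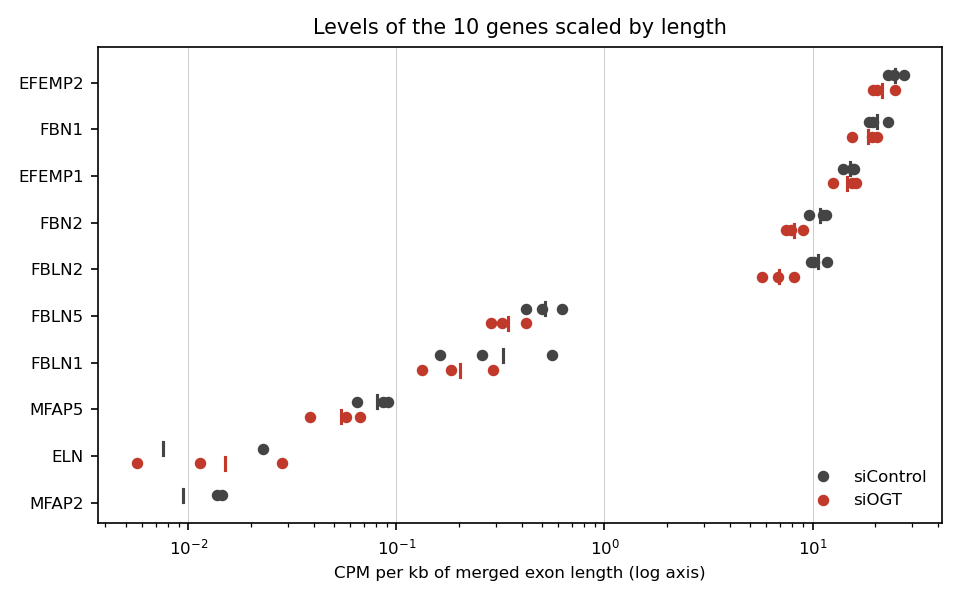
Levels of the 10 genes in CPM per kb of merged exon length, on a log axis, with 1 point per library and a short bar for the mean of each group; libraries at 0 are not drawn. EFEMP2, FBN1, EFEMP1, FBN2 and FBLN2 sit between 5.74 and 27.4 CPM per kb in all 6 libraries, and no library of the other 5 genes exceeds 0.627.

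Silencing of OGT lowered 3 of the 10 genes, FBN2, FBLN2 and EFEMP2, and raised none. In bulk RNA such as this, fewer cells of a kind and less RNA per cell cannot be told apart. Each gene was tested with edgeR with replicate as a block (a term for each pair of libraries) and called at an adjusted p of at most 0.05 over all 14853 genes tested. Over all genes tested, 12.7% were called lower and 12.7% higher. MFAP2 did not reach the minimum total of 10 counts, so that 9 of the 10 genes were tested. The median log2FC of those 9 was -0.42, against 0.0068 over all genes tested. Of the 9, 6 were lower in all 3 pairs, where 26.8% of all genes were. MFAP5, with only 4 to 9 counts per library, was among these 6. In 2 of the 6 (FBN2 and FBLN2) every siOGT library lay below every siControl library, where 11.8% of all genes did so and 12.1% had every siOGT library above. None of the 9 was called higher by edgeR or by DESeq2, and 0 had an unadjusted p of at most 0.05 in that direction.

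**Figure D2:**
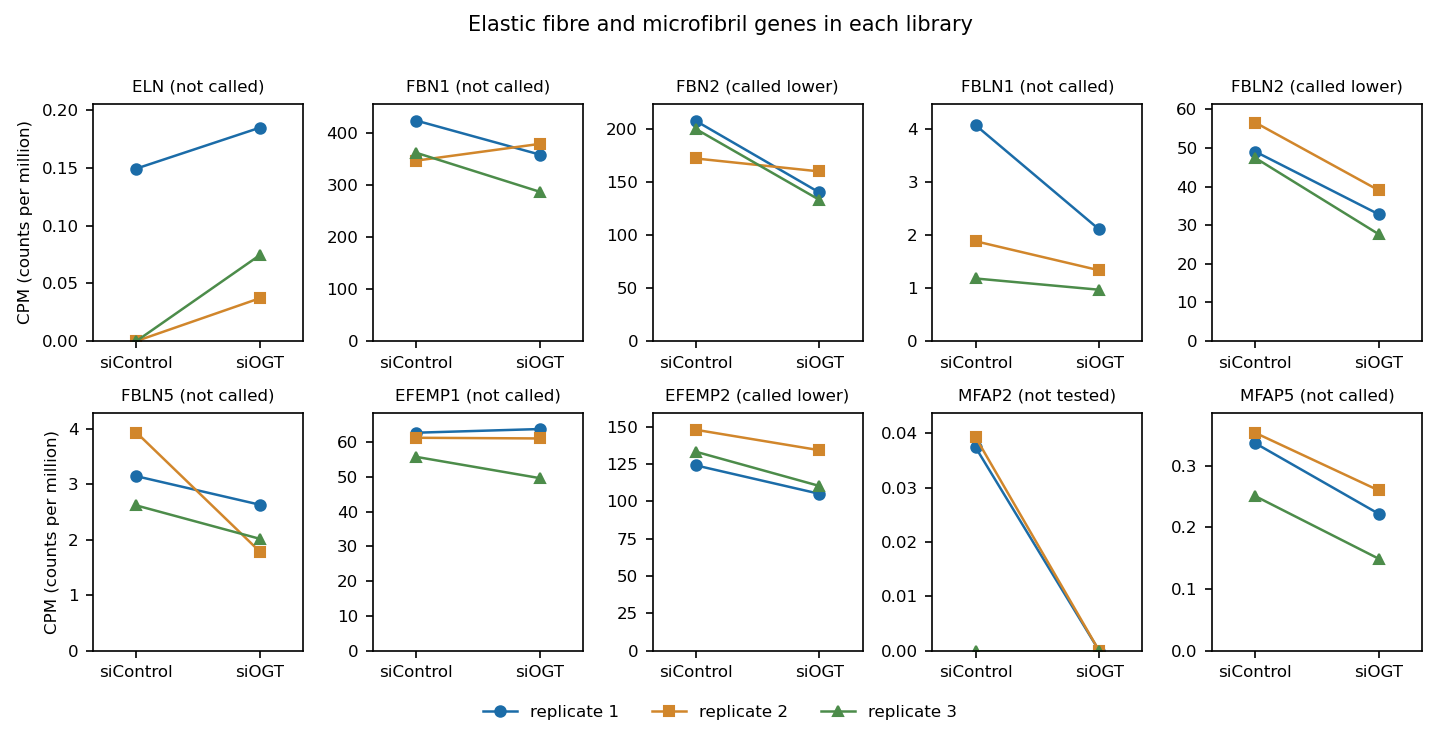
CPM of each of the 10 genes in each library, with a line joining the siControl and siOGT library of 1 replicate number; each panel has its own linear axis from 0. The lines of FBN2, FBLN2 and EFEMP2 fall in all 3 pairs, FBN1 rises in replicate 2, and ELN stays at or below 0.185 CPM.

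The fibrillins are the large, calcium-binding proteins that polymerise into microfibrils. FBN1 (chromosome 15, 48408313 to 48645721, minus strand, hg38, 66 exons), the main fibrillin of adult tissue, had 425, 348 and 363 CPM in siControl 1, 2 and 3 and 359, 380 and 288 CPM in siOGT 1, 2 and 3. The groups overlapped: FBN1 was lower in pairs 1 and 3 and slightly higher in pair 2. Its log2FC of -0.15 (SE 0.080, 95% confidence interval -0.32 to 0.019) was not called, with an edgeR adjusted p of 0.188. The value depended on single pairs: it was -0.29 without replicate 2 (adjusted p 0.00937), -0.10 without replicate 1 (0.603) and -0.063 without replicate 3 (0.601). In the fit without replicate 2, edgeR took the variance of a gene wholly from the trend over all genes. The adjusted p-values of that fit are therefore not on a par with those of the other fits. FBN2 (chromosome 5, 128257909 to 128659185, minus strand, 65 exons), the fibrillin best known from development, had 208, 172 and 200 CPM in siControl and 140, 160 and 133 CPM in siOGT. All siOGT libraries were below all siControl libraries, with the smallest step again in pair 2. The log2FC of FBN2 was -0.42 (SE 0.083, 95% confidence interval -0.59 to -0.25), an expression 0.747 times that of siControl, with an edgeR adjusted p of 0.00131. Without the replicate block the log2FC was also -0.42, but its adjusted p was 0.0947 and the call was lost.

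The 2 fibrillins were also compared with each other within each library. In CPM per kb, FBN1 exceeded FBN2 by a ratio of 1.97, 1.94 and 1.75 in siControl and of 2.47, 2.29 and 2.08 in siOGT, so that the ratio was higher in 3 of 3 pairs and the groups did not overlap. The mean log2 difference of this ratio was 0.27 ± 0.049 (SD, n = 3 pairs). An exact two-sided permutation test over the pairs gave p = 0.25, the smallest value that 3 pairs allow. For the 2 short fibulins, the ratio of EFEMP1 to EFEMP2 was 0.689, 0.564 and 0.570 in siControl and 0.827, 0.620 and 0.613 in siOGT. It too was higher in 3 of 3 pairs, by 0.17 ± 0.085 on the log2 scale, but the groups overlapped (exact permutation p = 0.25). These were the 2 ratios computed, and after Benjamini-Hochberg adjustment both p-values remained 0.25.

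**Figure D3:**
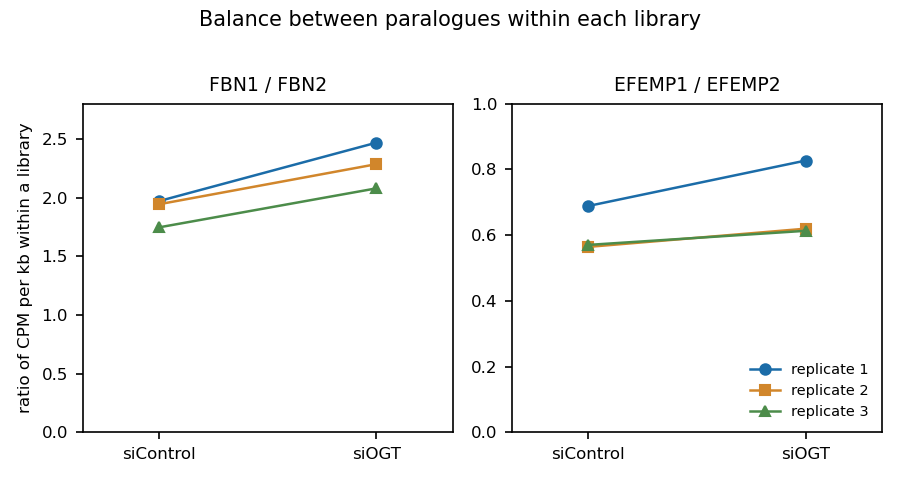
Ratio of FBN1 to FBN2 (left) and of EFEMP1 to EFEMP2 (right), each from CPM per kb within 1 library, with lines joining libraries of 1 replicate number. Both ratios rise in all 3 pairs, from 1.75 to 1.97 up to 2.08 to 2.47 for the fibrillins.

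Among the fibulins, FBLN2, a long fibulin that binds both fibrillin and elastin, showed the clearest change. FBLN2 (chromosome 3, 13549125 to 13638422, plus strand, 18 exons) had 49.1, 56.6 and 47.4 CPM in siControl and 32.8, 39.1 and 27.7 CPM in siOGT. The groups were well apart, and the steps in the pairs were alike, with log2 ratios of -0.58, -0.53 and -0.78. Its log2FC was -0.63 (SE 0.074, 95% confidence interval -0.78 to -0.47), an expression 0.647 times that of siControl, with an edgeR adjusted p of 1.369e-05. It was called without any 1 of the 3 pairs (log2FCs of -0.68 to -0.56). Without the replicate block the edgeR adjusted p of FBLN2 was 0.0636 and the call was lost, whereas DESeq2 called it both with the block (5.354e-08) and without it (0.00241).

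EFEMP2, also named fibulin-4, is needed for elastic fibre assembly and brings lysyl oxidase to tropoelastin. EFEMP2 (chromosome 11, 65866441 to 65873592, minus strand, 11 exons) had 124, 148 and 133 CPM in siControl and 105, 134 and 110 CPM in siOGT. It was lower in each pair by a similar step, while the differences between replicates were larger than the step, so that the groups overlapped. The log2FC was -0.22 (SE 0.064, 95% confidence interval -0.35 to -0.082), an expression 0.860 times that of siControl, with an edgeR adjusted p of 0.0193. The call was lost without the replicate block (0.361) and without replicate 1 (log2FC -0.21, adjusted p 0.173). EFEMP1, or fibulin-3, is the closest relative of EFEMP2 in structure. EFEMP1 (chromosome 2, 55865967 to 55924139, minus strand, 12 exons) had 62.7, 61.2 and 55.7 CPM in siControl and 63.7, 61.0 and 49.6 CPM in siOGT. Pairs 1 and 2 barely moved, and the log2FC of -0.048 (95% confidence interval -0.19 to 0.097) was not called (edgeR adjusted p = 0.660).

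The remaining fibulins were sparse. FBLN5, which tethers elastin to cells through integrins, had 84, 100 and 73 counts in siControl and 71, 48 and 54 counts in siOGT, and FBLN1, a component of the elastin core, had 109, 48 and 33 counts in siControl and 57, 36 and 26 counts in siOGT. Both were lower in 3 of 3 pairs, but for FBLN1 the replicates spread more widely than the groups, with replicate 1 highest in both. Neither was called: the log2FC of FBLN5 was -0.59 (SE 0.22, edgeR adjusted p = 0.0621) and that of FBLN1 was -0.62 (SE 0.26, edgeR adjusted p = 0.0862). FBLN5 was called when no filter on low counts was applied (adjusted p 0.0373), and its log2FC ranged from -0.76 to -0.32 when 1 pair was left out. The log2FC of FBLN1 was -0.40 without replicate 1 (adjusted p 0.543), -0.69 without replicate 2 (0.118) and -0.76 without replicate 3 (0.0551).

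At the low end stood the core protein of the fibre and the small microfibril glycoproteins. ELN (chromosome 7, 74027789 to 74069907, plus strand) had 4, 0 and 0 counts in siControl and 5, 1 and 2 counts in siOGT. It was higher in 3 of 3 pairs, but both groups lay near the limit that a count of 0 allows, so that no fold is given (edgeR adjusted p = 0.587). MFAP2, which binds fibrillin and latent growth factors, had 1, 1 and 0 counts in siControl and 0 in all siOGT libraries, and a difference was not detectable at this depth. MFAP5 had 9, 9 and 7 counts in siControl and 6, 7 and 4 counts in siOGT, with a log2FC of -0.57 that its interval left undetermined (-1.94 to 0.80, edgeR adjusted p = 0.569). Of its 6 deposited values only 1 was a whole number, as arises where reads are divided between genes, whereas all values of the other 9 genes were whole. No exonic base of the 10 genes is shared with another gene on the same strand in GENCODE 44, and on the opposite strand the share was at most 2.51%, except 13.6% for MFAP2.

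To set the genes that were lower together beside each other, the 250 bases before the RefSeq transcription starts of FBN2, FBLN2 and EFEMP2 were searched for 4 short motifs on both strands, together with FBN1, which was not called. Entries were found for 7 of the 10 genes. The core bound by TEAD factors, GGAATG, occurred in 11.9% of all 35116 windows. The site of AP-1 factors, TGANTCA, was present in 6.57% of them. The GC box bound by SP1, GGGCGG, was present in 42.6%. The TATA box, TATAAA, was present in 10.7%. The windows of FBN2, FBLN2 (first start) and EFEMP2 held 3, 5 and 5 GC boxes, some of them overlapping, and none of the other 3 motifs. A later start of FBLN2 had none of the 4 motifs and a GC content of 66%. The window of FBN1 held no GC box and 1 TEAD core, which begins 58 bases before the start. GC content was 72.8%, 80.4% and 81.6% in FBN2, FBLN2 and EFEMP2 and 69.6% in FBN1, against a median of 58% over all windows. Genes that were not called or not tested also held GC boxes: 3 and 1 in the 2 windows of FBLN5, 1 in FBLN1 (GC content 77.6%) and 2 in 1 of the 2 windows of MFAP2 (76.4%). The FBLN5 window with 1 GC box (48.8%) also held 1 TATA box, and the other MFAP2 window (46.8%) held 2 AP-1 sites. These matches are a description of the letters in these windows. The RefSeq starts of FBN1, FBN2 and EFEMP2 lie inside the span that GENCODE gives the gene. So do those of FBLN1 and FBLN5, the later start of FBLN2 and 1 of the 2 starts of MFAP2. In EFEMP2, 142 of the 250 bases lie in exons of GENCODE on the same strand. So do 112 and 10 bases in the 2 windows of FBLN5, 51 in FBLN1 and 12 in 1 window of MFAP2. The windows of FBN1, FBN2 and FBLN2 hold no such base. The windows of FBN1 (chr15:48644971-48645220, minus strand, GRCh38.p14), FBN2 (chr5:128538246-128538495, minus strand) and FBLN2 (chr3:13548875-13549124, plus strand) are shown 5′ to 3′ to set the fibrillin that was not called beside the called genes, with motif matches in capitals, those on the opposite strand appearing as the reverse complement.
FBN1: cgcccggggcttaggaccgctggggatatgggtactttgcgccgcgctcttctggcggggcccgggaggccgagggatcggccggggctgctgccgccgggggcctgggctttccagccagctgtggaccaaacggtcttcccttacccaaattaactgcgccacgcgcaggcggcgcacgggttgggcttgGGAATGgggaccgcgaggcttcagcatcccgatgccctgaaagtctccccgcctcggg
FBN2: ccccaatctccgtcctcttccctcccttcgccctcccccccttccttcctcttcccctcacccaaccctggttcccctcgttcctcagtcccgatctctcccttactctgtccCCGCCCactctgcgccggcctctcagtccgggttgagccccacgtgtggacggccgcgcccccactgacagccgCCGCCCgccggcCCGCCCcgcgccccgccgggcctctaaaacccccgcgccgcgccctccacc
FBLN2: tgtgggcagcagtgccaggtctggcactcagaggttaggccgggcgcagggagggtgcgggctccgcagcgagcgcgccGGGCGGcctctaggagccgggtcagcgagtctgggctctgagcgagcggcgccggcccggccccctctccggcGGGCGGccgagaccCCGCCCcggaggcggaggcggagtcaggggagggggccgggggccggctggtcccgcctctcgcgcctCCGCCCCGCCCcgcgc

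The list of genes that assemble, cross-link, bind or degrade elastic fibres, here called partners, held 58 genes, of which 55 were measured and 48 were tested. FBN3, DCN and MMP12 were not analysed here. Of the 48, 13 were called lower and 5 higher, where 12.7% of all genes tested were called in each direction. DESeq2 with the replicate block called 9 lower and 4 higher, where it called 1298 lower and 1117 higher of all 12549 genes tested. The median log2FC was -0.057 among the partners, against 0.0068 over all genes tested.

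Of the 7 genes that make up latent TGF-beta and its store on microfibrils, 3 were called lower, where 12.7% of all genes tested were. LTBP3, which holds latent TGF-beta on microfibrils, had 71.5, 77.9 and 62.6 CPM in siControl and 41.4, 48.2 and 33.0 CPM in siOGT. The groups were far apart, and its log2FC of -0.80 (SE 0.071, edgeR adjusted p = 8.628e-07) was called in every alternative run, the fit without the replicate block included. LTBP4, which also guides FBLN5 onto elastic fibres, had a log2FC of -0.46 (edgeR adjusted p = 9.414e-05), and TGFB1, the cytokine itself, one of -0.25 (0.00837), which was not called without replicate 2 (0.0591). LTBP1, LTBP2, TGFB2 and TGFB3 were not called.

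The cross-linking enzymes, which join elastin molecules through their lysines, split. Of 5 lysyl oxidases, LOX had a log2FC of 0.30 (edgeR adjusted p = 0.00760) and LOXL4 of 0.49 (0.0163), and both were called higher. LOXL1, the member most closely tied to elastin, had -0.35 (0.00169) and was called lower. Over all genes tested, 12.7% were called in each direction. LOX varied more between replicates than between groups, with 507, 282 and 321 CPM in siControl and 624, 398 and 344 CPM in siOGT. LOXL2, the most abundant of them by CPM, was not called (log2FC 0.18, edgeR adjusted p = 0.0754), although it was called higher with library totals alone (0.0448), with no filter on low counts (0.0470) and without replicate 3 (0.0273), and its log2FC was 0.089 without replicate 2. The call of LOX was lost without replicate 1 (0.0800) and without replicate 2 (0.104), that of LOXL4 without replicate 2 (0.126), without replicate 3 (0.0942) and with DESeq2 with the block (0.0933), and that of LOXL1 without replicate 1 (0.0709).

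Among 9 ADAMTS and ADAMTSL proteins tied to microfibril assembly, 1 was called higher and 1 lower, where 12.7% of all genes tested were called in each direction. The protease ADAMTS6 was called higher (log2FC 0.28, edgeR adjusted p = 0.00436) and ADAMTSL4, which binds FBN1, was called lower (-0.42, 0.00247). THSD4, the most abundant by CPM, was not called, with a log2FC of -0.013. Among 10 genes of fibrillin processing and cell-side assembly, 8 were tested, 4 were called lower and 1 higher, where 12.7% of all genes tested were called in each direction. FN1, the fibronectin on which microfibrils are laid, had a log2FC of -0.28 (edgeR adjusted p = 0.0377). Like FBN1 it was higher in siOGT in pair 2 (log2 ratio 0.12) and lower in pairs 1 and 3 (-0.45 and -0.53), and its call was lost without replicate 1 (0.331), without replicate 3 (0.244), with DESeq2 with the block (0.345), with library totals alone (0.0591) and with a stricter filter on low counts (0.0561). The integrin subunits ITGB3 (-0.52, 0.00434), ITGB5 (-0.22, 0.0397) and ITGB8 (-0.31, 0.0293), partners of the alpha V chain that bind fibrillin and latent TGF-beta, were called lower, while ITGA5, the fibronectin receptor, was called higher (0.33, 0.00250), each value being a log2FC with its edgeR adjusted p. The call of ITGA5 was lost without replicate 1 (0.0593), that of ITGB5 without replicate 1 (0.103) and replicate 3 (0.179), and that of ITGB8 without replicate 1 (0.119) and replicate 3 (0.134). DESeq2 with the block called neither ITGB5 (0.114) nor ITGB8 (0.138), and ITGB5 was also not called with library totals alone (0.0649), while ITGB3 was called without any 1 pair.

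Of the 6 tested relatives of fibrillins and fibulins and other microfibril-associated genes, FBLN7 alone was called (log2FC -0.20, edgeR adjusted p = 0.0377), where 12.7% of all genes tested were called lower. The call of FBLN7 was lost without any 1 pair (0.0553 to 0.215), with DESeq2 with the block (0.110) and with library totals alone (0.0613). Among the proteoglycans, HSPG2, the perlecan that anchors microfibrils at basement membranes, had 261 ± 47.7 CPM in siControl and 179 ± 37.8 CPM in siOGT (mean ± SD of 3 libraries), and was called lower (log2FC -0.55, edgeR adjusted p = 5.698e-05). Of 7 proteases that can cut elastin, 2 were called lower, where 12.7% of all genes tested were. These were MMP2 (-0.28, edgeR adjusted p = 0.0177) and the cysteine cathepsin CTSV (-0.73, edgeR adjusted p = 0.00254). MMP2 was not called without replicate 3 (log2FC -0.15, adjusted p 0.123). In the elastin receptor complex, which binds elastin fragments at the cell surface and also works in lysosomes, the sialidase NEU1 was called higher (0.54, edgeR adjusted p = 2.656e-05), with 58.4, 56.9 and 65.2 CPM in siControl and 92.0, 76.5 and 94.4 CPM in siOGT, all siOGT libraries lying above. Its partner CTSA was not called, with a log2FC of -0.013.

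**Figure D4:**
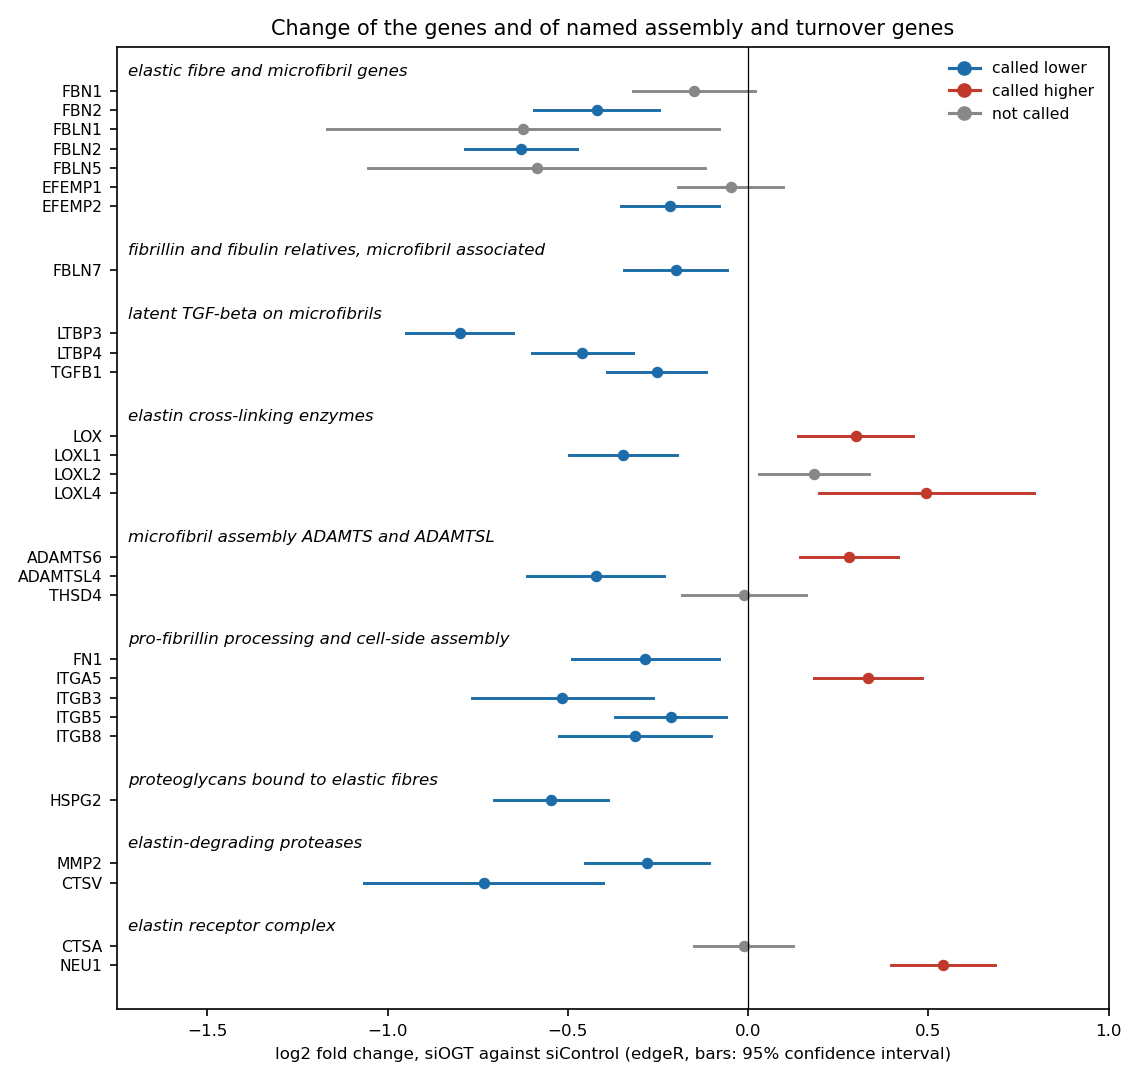
Log2FC of siOGT against siControl from edgeR with the replicate block, with 95% confidence intervals, for 7 of the genes of the fibre (ELN, MFAP2 and MFAP5, with few counts, are left out) and 21 partner genes by role. FBN2, FBLN2 and EFEMP2 lie left of 0, LTBP3 is the lowest of all genes drawn at -0.80, and NEU1 is the highest at 0.54.

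In edgeR, the pairing of replicates decided most of these calls. Without the replicate block, edgeR called 0 of the 9 tested genes of the fibre, of which 3 had an unadjusted p of at most 0.05, and DESeq2 without it called FBN2 and FBLN2. Among the partners, edgeR without the block called LTBP3 alone, while 0.397% of all genes were called lower and 0.478% higher. DESeq2 without the block called LTBP3, LTBP4, HSPG2 and CTSV lower and ITGA5 and NEU1 higher, with 461 lower and 388 higher of all 12549 genes tested. The edgeR log2FCs themselves moved little, so that FBN2 had -0.42, FBLN2 -0.62 and EFEMP2 -0.21 without the block.

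**Figure D5:**
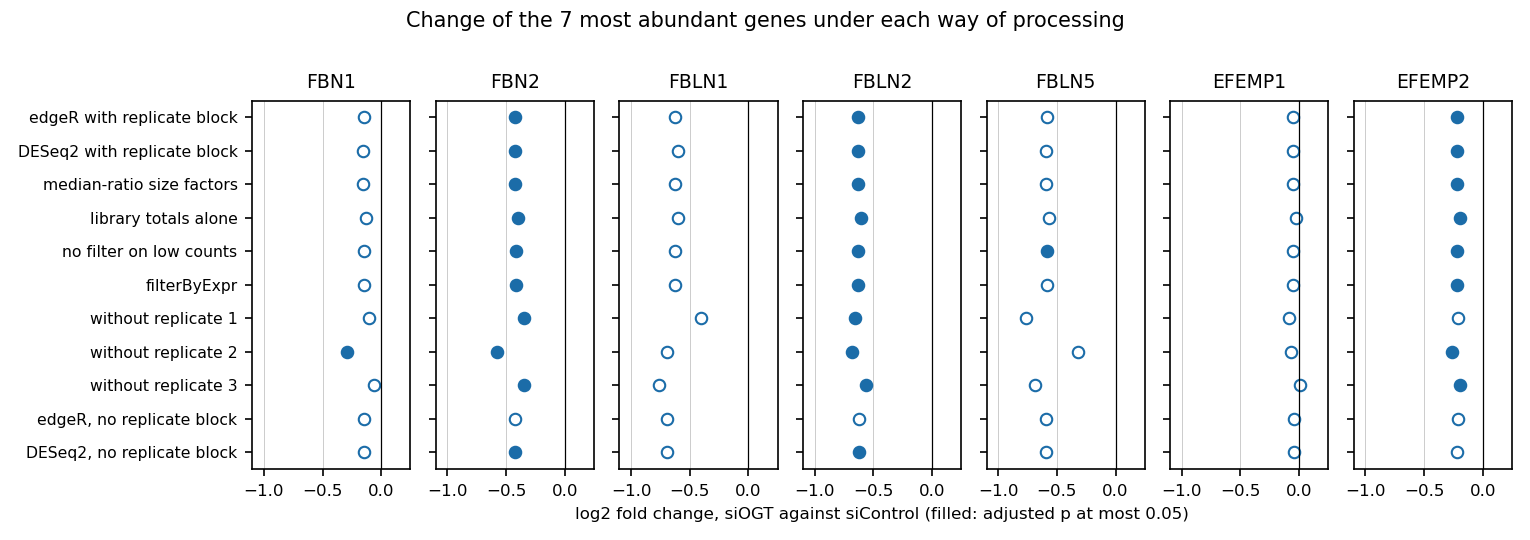
Log2FC of the 7 most abundant genes of the fibre as reported (top) and 10 alternatives, with filled points where the adjusted p was at most 0.05. FBN2 and FBLN2 are filled in all but the edgeR fit without the replicate block, FBN1 is filled only without replicate 2, and FBLN5 only with no filter on low counts.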

How the data were processed

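RNA of 6 LX-2 libraries (3 siControl, 3 siOGT) was analysed, with groups and replicate numbers taken from the sample titles. The authors sequenced oligo-dT-enriched RNA with a strand-specific kit and mapped the read pairs to hg38 with Bowtie2 2.3.5.1. They deposited, for each gene and library, the expected count of RSEM 1.3.1, not normalized. A table of the authors' own DESeq2 comparison (mean, log2 fold change, standard error, statistic and p-values) was not used.

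Counts were rounded, genes whose 6 libraries summed to under 10 were dropped (2054 genes, 0.00447% of counts), and TMM factors (0.979 to 1.02) were applied. Genes were tested with edgeR 4.0.16 in R 4.3.3 (quasi-likelihood, two-sided) with replicate as a block, as the study paired its samples, and p-values were adjusted by Benjamini-Hochberg. Intervals come from the F statistic. Log2 ratios within a pair add 2 counts. Deviations from group means correlated at 0.69, 0.53 and 0.33 between same-numbered libraries, across 12373 genes. The study calls its replicates independent experiments, and every 2 libraries of a group differed by more than counting noise (chi-square per degree of freedom at least 20.3). Alternatives included DESeq2 1.42.0.

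Partner genes are named where called with a mean of at least 1 CPM or the most abundant of their role. The genes, lists and promoter motifs were chosen with earlier results of these data known. Exon lengths come from GENCODE 44. Floors and intervals cover counting error or the spread between these libraries only.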

Additional observations from a re-analysis of the deposited data

How the results depend on the processing

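OGT stayed lower and called in all 10 alternatives (log2 fold changes -2.25 to -2.11), and no gene of the fibre was called higher in any. Without the replicate block edgeR called 130 genes in place of 3766, and 0 in place of 3 genes of the fibre lower, 1 in place of 13 partners lower and 0 in place of 5 partners higher (3 at an unadjusted p of at most 0.05). DESeq2 called 2415 of 12549 genes with the block. Without it, a fit chosen after seeing the data, DESeq2 called 849 of 12549 genes, 2 genes of the fibre lower, 4 partners lower and 2 partners higher. Leaving out 1 pair gave 1803 to 3439 called genes (fewest without replicate 1), 2 to 4 genes of the fibre lower, 8 to 11 partners lower and 3 to 5 partners higher. The calls without replicate 2 rest on variances taken wholly from the trend over all genes and are not on a par with the others. The 3 genes of the fibre called lower were called with DESeq2 with the block, either other scaling and either other filter. Leaving out 1 pair moved the log2 fold change of EFEMP1 between -0.087 and 0.0036 (above 0 without replicate 3), of CTSA between -0.041 and 1.407e-04 (above 0 without replicate 2) and of THSD4 between -0.13 and 0.12 (above 0 without replicate 3). With library totals alone CTSA and THSD4 were each at 0.0097, and none of these was called. Of the other single-gene values over all alternatives, 225 were labelled the same, 60 lost a call, 5 gained one and 8 levels per kb moved with the length used. The 225 kept their direction and call or, for the levels per kb of ELN and MFAP2, did not move with the length used. DESeq2 gave no adjusted p for ELN and MFAP5. The cause of these differences was not tested. At this depth ELN, MFAP2 and MFAP5 could not be compared.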
